A study of Sus scrofa with 3 samples.

Results

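The miR-23/27/24 clusters were examined in small RNA of psoas major muscle from growing pigs. Every porcine mature name of number 23, 24 or 27 was taken, whatever its letter or arm, so that the members were chosen by name and not by level. The rule gave 8 of the 268 porcine mature names in the files, and all 8 were listed in each library, on 9 rows. The pigs were castrated males of a Landrace, Large White and Duroc hybrid, slaughtered at 63 d, 98 d or 161 d, and equal amounts of RNA of 6 pigs were combined into 1 library per age. Age is the only difference that the labels give between the groups, and with 1 library per age no difference has a replicate check. The paper also states that the diet was set by body-weight stage, so that diet and weight cannot be told apart from age. No test was made, and every interval given is at the 95% level and covers counting error only.

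The libraries of 63, 98 and 161 d held 1464699, 2418187 and 2242716 listed reads. Levels are given as RPM, the reads of a name per 1000000 reads listed in the library, and 3 reads corresponded to 2.05, 1.24 and 1.34 RPM. The label of the tissue was checked against muscle miRNAs. The muscle miRNA ssc-miR-133a-3p stood at 432681, 361663 and 439710 RPM, and all 7 miRNAs of the muscle list were present. In whole muscle, fewer cells of a type and less RNA per cell cannot be told apart.

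The miRNAs of number 23, 27 and 24 are made from 2 paralogous genes, each of which is transcribed as 1 precursor that holds a miR-23, a miR-27 and a miR-24 hairpin in this order. The Drosha and Dicer enzymes cut each hairpin, and the 3p arm is the one that usually enters the silencing complex. There the seed near the 5′ end finds target mRNAs. In muscle, miR-23a is known for repressing the ubiquitin ligases of muscle atrophy, miR-27 for repressing Pax3 and myostatin, and miR-24 for promoting myoblast differentiation, while in endothelium the same clusters act in vessel growth.

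The known mature sequences are given first, because the a and b members differ in so few bases that a single read can be placed at either. They are written as DNA from the deposited files, with the seed, bases 2 to 8, in capitals.
ssc-miR-23a: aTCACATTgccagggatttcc
ssc-miR-23b: aTCACATTgccagggattacca
ssc-miR-27a: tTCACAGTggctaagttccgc
ssc-miR-27b-3p: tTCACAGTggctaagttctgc
ssc-miR-24-3p: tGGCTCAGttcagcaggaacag
ssc-miR-24-1-5p: gTGCCTACtgagctgaaacacagt
ssc-miR-24-2-5p: gTGCCTACtgagctgatatcagt
ssc-miR-27b-5p: aGAGCTTAgctgattggtgaaca

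The a and b members of a number shared the seed. Over the 21 bases that both cover, ssc-miR-23a and ssc-miR-23b differed by 1 base, T19A from a to b, with positions counted from 1 at the 5′ end. Likewise ssc-miR-27a and ssc-miR-27b-3p differed by 1 base, C19T from a to b. The mature ssc-miR-24-3p was the same in both clusters, and only the 5p arms told its 2 hairpins apart.

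The files placed the a cluster on the plus strand, with mir-23a at 65581838 to 65581907, mir-27a at 65582015 to 65582096 and mir-24-1 at 65582174 to 65582254, so that it spanned 417 bases. The b cluster was on the minus strand, with mir-23b at 31341105 to 31341196, mir-27b at 31340871 to 31340979 and mir-24-2 at 31340334 to 31340413, and it spanned 863 bases. The files name no genome build or chromosome for these positions. In the RefSeq annotation of the pig assembly Sscrofa11.1, the a genes lie on chromosome 2, outside protein-coding genes and nearest to ZSWIM4, and the b genes lie on chromosome 10 within the protein-coding gene C10H9orf3. The predicted free energy of the hairpins was -26.7 kcal/mol for mir-23a, -38.5 for mir-23b, -41.2 for mir-27a, -50.2 for mir-27b, -30.7 for mir-24-1 and -28 for mir-24-2. In both pairs that differ in mature sequence, the b hairpin had the lower predicted energy, but it was also longer. The lengths were 92 bases for mir-23b against 70 for mir-23a, and 109 for mir-27b against 82 for mir-27a. The energies are for whole hairpins and were not compared per base.

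The 8 members together held 1.60%, 1.90% and 1.78% of all reads listed at 63, 98 and 161 d. The most abundant was ssc-miR-27b-3p, at 11274, 12742 and 11668 RPM, which ranked 11, 10 and 11 among the porcine names. It held 70.3%, 66.9% and 65.6% of the reads of the 8 members. Next came ssc-miR-24-3p, at 1807, 2404 and 2406 RPM, summed over its 2 hairpins. Close to it stood ssc-miR-23b, at 1734, 2394 and 2230 RPM. The ratio of ssc-miR-24-3p to ssc-miR-23b was 1.04 (exact interval 0.986 to 1.10), 1.00 (0.968 to 1.04) and 1.08 (1.04 to 1.12), so that with all reads they differed beyond counting error at 161 d only. This depended on the counting, since the ratio was 1.10 (1.01 to 1.20), 1.07 (1.01 to 1.13) and 1.10 (1.04 to 1.17) among reads without mapping error. At 98 d it was 0.891 (0.844 to 0.941) with copies of the representative read of each.

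The a members were lower. The level of ssc-miR-27a was 702.5, 733.4 and 784.1 RPM. That of ssc-miR-23a was 475.9, 724.7 and 654.6 RPM, and at 98 d it did not differ from ssc-miR-27a beyond counting error. The 5p arms with porcine names were rare. The level of ssc-miR-27b-5p was 21.2, 21.5 and 22.7 RPM, that of ssc-miR-24-1-5p was 11.6, 11.2 and 10.3, and that of ssc-miR-24-2-5p was 6.83, 12.8 and 10.3. All 8 members thus stood above the level of 3 reads in every library, and the order of the 5 abundant ones was the same in every library.

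**Figure D1:**
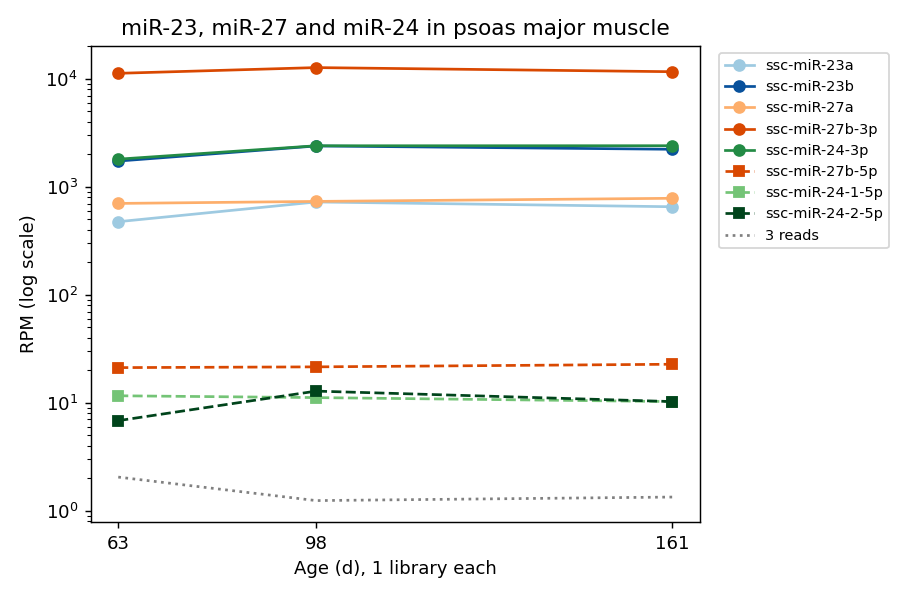
Levels of the 8 members in RPM (log axis) against age in days, 1 library per point, with 3p arms or unlabelled arms as circles and 5p arms as squares. The line of ssc-miR-27b-3p reaches 12742 RPM at 98 d, the 5p arms lie between 6.83 and 22.7, and the dotted line marks 3 reads.

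The a and b clusters were compared within each library, where no scaling enters. The b cluster held 91.7% (Wilson interval 91.3 to 92.1), 91.2% (90.9 to 91.5) and 90.6% (90.3 to 90.9) of the miR-23 and miR-27 reads at 63, 98 and 161 d. There were 3.64 (exact interval 3.35 to 3.97), 3.30 (3.13 to 3.48) and 3.41 (3.21 to 3.61) reads of ssc-miR-23b for 1 read of ssc-miR-23a. For miR-27 the b member outnumbered the a member by far more. The ratio of ssc-miR-27b-3p to ssc-miR-27a was 16.0 (15.1 to 17.1), 17.4 (16.6 to 18.2) and 14.9 (14.2 to 15.6).

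Both ratios depended on which reads were counted. Each row of the files divides its reads into those that map without error and those with at least 1 base that differs from the reference. Among reads without error, the ratio of ssc-miR-23b to ssc-miR-23a was 1.58 (1.43 to 1.75), 1.5 (1.41 to 1.60) and 1.63 (1.52 to 1.74). In the same reads the ratio of ssc-miR-27b-3p to ssc-miR-27a was 38.4 (34.7 to 42.6), 39.7 (36.9 to 42.8) and 34.4 (31.9 to 37.2). The b member stayed above the a member in every library under each way of counting, but the excess moved in opposite directions for the 2 numbers. The b share of both numbers hid this, with 93.9%, 92.9% and 92.7% among reads without error.

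**Figure D2:**
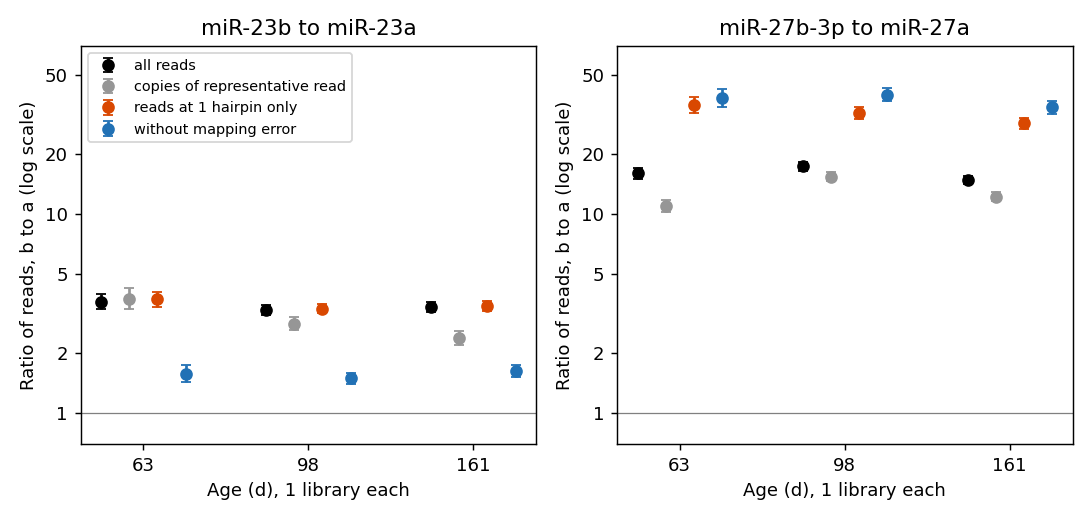
Ratio of b to a reads within a library (log axis) for miR-23 on the left and miR-27 on the right, by age, with the 95% exact interval as bars and 4 ways of counting as colours. All points lie above 1, and the reads without mapping error (blue) lie lowest for miR-23, at 1.5 to 1.63, and highest for miR-27, at 34.4 to 39.7.

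The order of the a members also turned with the counting. With all reads, ssc-miR-27a had 1.48 (1.34 to 1.63), 1.01 (0.947 to 1.08) and 1.20 (1.12 to 1.28) reads for 1 read of ssc-miR-23a. With reads without error the same ratio was 0.602 (0.530 to 0.684), 0.440 (0.403 to 0.481) and 0.507 (0.462 to 0.556). In the b cluster the order held, with 6.50, 5.32 and 5.23 reads of ssc-miR-27b-3p for 1 of ssc-miR-23b among all reads, and 14.6, 11.6 and 10.7 among reads without error.

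The rows of ssc-miR-27a were led by a read that does not have the sequence of ssc-miR-27a. In each file, the row of an arm shows the read of highest mapped score, here called the representative read, and the number of its copies. The representative read of ssc-miR-27a is printed with capitals where it differs from the mir-27a hairpin, above the hairpin stretches of mir-27a and mir-27b that start at the mature miRNA and run for 24 bases.
read listed for ssc-miR-27a: ttcacagtggctaagttcTgcT
mir-27a hairpin: ttcacagtggctaagttccgcccc
mir-27b hairpin: ttcacagtggctaagttctgcacc

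Against the mir-27a hairpin this read differed by C19T and C22T, hairpin base first, and against the mir-27b hairpin it differed only by A22T. It thus carried the b base at the 1 position that tells the mature pair apart, followed by a T that neither hairpin has. The same read represented ssc-miR-27a in all 3 libraries, with 1007, 1467 and 1526 copies. The row held 1029, 1773.5 and 1758.5 reads, of which 391, 714 and 693 mapped without error. Copies and reads without error together exceeded the row, so the copies were not all counted there.

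The files also give, for each hairpin, a total that is not divided between hairpins. At mir-27a this total exceeded the reads assigned to its arms by 577, 843.5 and 873.5 reads, and at mir-27b by exactly the same 577, 843.5 and 873.5. If a read that maps to both hairpins is divided equally between them, 1154, 1687 and 1747 reads were shared. The copies of the representative read amounted to 87.3%, 87.0% and 87.3% of that number. On the same basis, 56.1%, 47.6% and 49.7% of the reads listed for ssc-miR-27a came from shared reads, against 3.49%, 2.74% and 3.34% of those listed for ssc-miR-27b-3p.

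Without shared reads, ssc-miR-27a had 452, 930 and 885 reads and ssc-miR-27b-3p had 15936, 29969 and 25295. The ratio of b to a was then 35.3 (32.1 to 38.8), 32.2 (30.2 to 34.4) and 28.6 (26.7 to 30.6). This was nearer to the ratio of reads without error than to that of all reads, but below the former in each library. At 98 and 161 d the intervals did not overlap those of reads without error, 36.9 to 42.8 and 31.9 to 37.2. For miR-23 the a and b hairpins shared 52, 81 and 68 reads in the same way, or 3.73%, 2.31% and 2.32% of the reads of ssc-miR-23a. The ratio of ssc-miR-23b to ssc-miR-23a without them was 3.75 (3.44 to 4.09), 3.36 (3.18 to 3.55) and 3.46 (3.27 to 3.68). Shared reads were thus numerous at miR-27a and few at miR-23a.

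**Figure D3:**
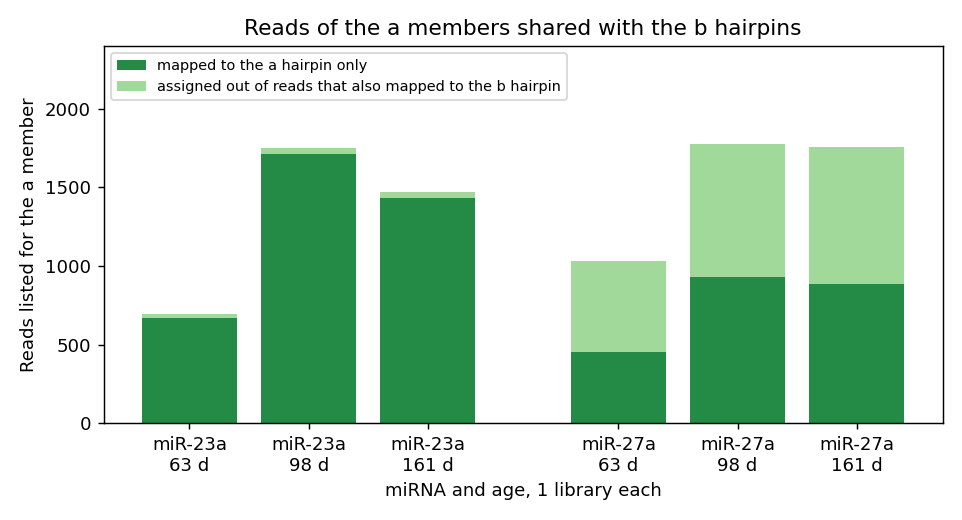
Reads listed for ssc-miR-23a and ssc-miR-27a at each age, divided into reads at the a hairpin only (dark) and reads assigned out of those that also map to the b hairpin (light), if shared reads are divided equally. At 63 d the light part is 577 of 1029 reads for ssc-miR-27a and 26 of 697 for ssc-miR-23a.

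For miR-24-3p the sharing was nearly complete. The mir-24-2 and mir-24-1 hairpins were assigned 1321.5 and 1324.5 reads at 63 d, 2906.5 and 2906.5 at 98 d, and 2697.5 and 2698.5 at 161 d. The even split is set by the division of reads and tells nothing of the 2 genes. The summed 2646, 5813 and 5396 reads were therefore taken as 1 member.

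The share of reads with mapping errors separated the 5 abundant members into 2 sets. It was 59.6%, 58.0% and 55.6% for ssc-miR-23b at 63, 98 and 161 d. It was 57.4%, 55.4% and 54.6% for ssc-miR-24-3p, and 62.0%, 59.7% and 60.6% for ssc-miR-27a. In contrast it was 6.81%, 7.50% and 6.91% for ssc-miR-23a, and 9.02%, 8.01% and 8.86% for ssc-miR-27b-3p. The 2 sets did not overlap in any library, and each held members of both clusters. The reads with error at ssc-miR-27a numbered 638, 1059.5 and 1065.5. If shared reads are divided equally, 577, 843.5 and 873.5 of all its reads came from reads that also map to mir-27b. How many reads were in both counts was not tested, so its share may not be that of reads made from mir-27a.

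Among the 137 porcine names with at least 100 reads in each library, the median share over the 3 libraries was 16.2% (quartiles 9.90% and 26.7%). In all, 10 of the 137 names, or 7.30%, were above 50%, and ssc-miR-27a, ssc-miR-23b and ssc-miR-24-3p were ranked 5, 9 and 10 among them. The members with few errors were ranked 112 for ssc-miR-27b-3p and 122 for ssc-miR-23a.

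**Figure D4:**
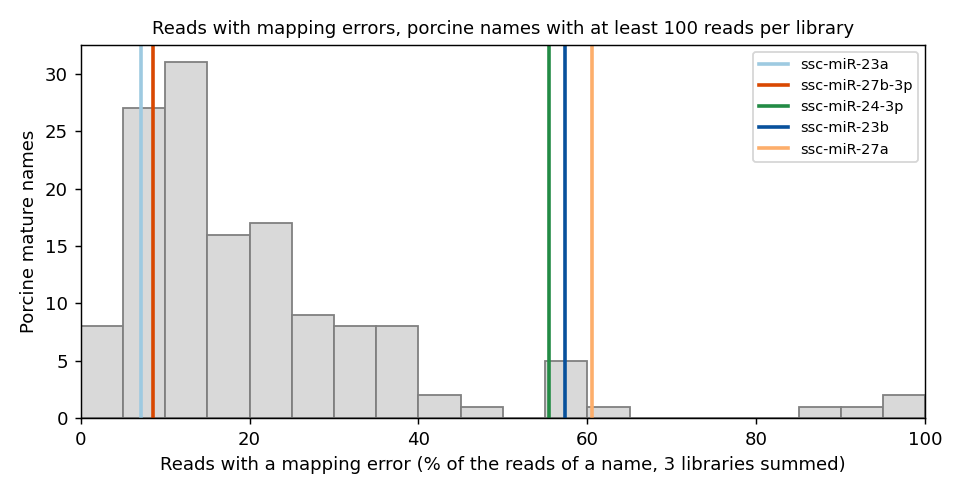
Histogram of the share of reads with a mapping error (%, summed over 3 libraries, bins of 5) for 137 porcine names, with the 5 abundant members as vertical lines. The lines of ssc-miR-23a and ssc-miR-27b-3p stand at 7.16% and 8.54%, and those of ssc-miR-24-3p, ssc-miR-23b and ssc-miR-27a at 55.5%, 57.4% and 60.6%.

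The 3 members with many errors also had representative reads that end in a T that is not in the hairpin. That of ssc-miR-27a is the read shown earlier, which differs from the mir-27b hairpin by 1 base and from the mir-27a hairpin by 2. Those of ssc-miR-23b and ssc-miR-24-3p are shown with that T in capitals, above the hairpin stretch of 24 bases that starts at the mature miRNA.
read listed for ssc-miR-23b: atcacattgccagggattaccacT
mir-23b hairpin: atcacattgccagggattaccacg
read listed for ssc-miR-24-3p: tggctcagttcagcaggaacagT
both mir-24 hairpins: tggctcagttcagcaggaacagga

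Against their hairpins, these reads differed by G24T for ssc-miR-23b and by G23T for ssc-miR-24-3p. The ssc-miR-23b read had 1220, 2811 and 2281 copies at 63, 98 and 161 d, and the ssc-miR-24-3p read had 1192, 2505 and 2296. A representative read of this kind was found for 5, 6 and 7 of the 137 names in the 3 libraries, or 3.65%, 4.38% and 5.11%, and 3 of these names were members in each library. Of these 3, ssc-miR-27a was counted by the read that carries the b base. By contrast, the representative reads of ssc-miR-23a and ssc-miR-27b-3p had no mismatch, with 324, 995 and 954 and with 11076, 22666 and 18672 copies. The reads with error numbered 1512.5, 3354.5 and 2778.5 for ssc-miR-23b and 1519, 3220 and 2947 for ssc-miR-24-3p. The representative read of each, which has 1 error, thus made up most of them if its copies were all counted there. The files do not list the other reads of a row, so that the part of other reads ending in such a T was not tested.

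The 5p arms were also compared between the 2 clusters. Of the mir-27b reads, 0.187% (0.132 to 0.266), 0.168% (0.129 to 0.221) and 0.195% (0.148 to 0.256) were 5p, with 31, 52 and 51 reads. The 5p arms of mir-23b, mir-23a and mir-27a were listed under bovine and human names only. They had 4, 17 and 8 reads at mir-23b, 8, 1 and 4 at mir-27a, and 1, 0 and 1 at mir-23a, where the Wilson interval for 0 reads of 1752.5 reaches 0.219%. Over miR-23 and miR-27, the b hairpins held 35 of 44, 69 of 70 and 59 of 64 reads of the 5p arms. These are 79.5% (65.5 to 88.8), 98.6% (92.3 to 99.7) and 92.2% (83.0 to 96.6), and the b cluster was thus also in excess on this arm. Of these b reads, 31, 52 and 51 were of mir-27b. Whether 5p reads follow the output of the 2 genes was not tested.

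At the miR-24 hairpins no such excess was seen. The b arm ssc-miR-24-2-5p had 10, 31 and 23 reads and the a arm ssc-miR-24-1-5p had 17, 27 and 23. The b share was 37.0% (21.5 to 55.8), 53.4% (40.8 to 65.7) and 50.0% (36.1 to 63.9), and each of these intervals lay below that of the miR-23 and miR-27 5p arms in the same library. Among reads without error the b arm had 8, 13 and 10 reads and the a arm 14, 20 and 16. The representative reads of ssc-miR-24-2-5p carried A18T and T19A at 98 d and A17T and T18A at 161 d. That of the a arm ssc-miR-24-1-5p carried A16C and A19G at 161 d. These arms rest on at most 31 reads.

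The share of miR-27 within the clusters was highest at 63 d and lowest at 161 d with all reads, with reads without error, with copies of the representative read and with the hairpin of most reads. Of the reads of the 5 abundant members, miR-27 held 74.9% (74.3 to 75.4) at 63 d, 70.9% (70.5 to 71.3) at 98 d and 70.2% (69.7 to 70.6) at 161 d. The share of miR-23 was 13.8% (13.4 to 14.3), 16.4% (16.1 to 16.8) and 16.3% (15.9 to 16.6). The share of miR-24 was 11.3% (10.9 to 11.7), 12.7% (12.4 to 13.0) and 13.6% (13.2 to 13.9). Among reads without error, miR-27 held 84.6%, 81.4% and 80.3%, miR-23 held 9.21%, 11.4% and 11.7%, and miR-24 held 6.19%, 7.26% and 8.01%. The 63 d library thus had the highest share of miR-27 and the lowest shares of miR-23 and miR-24, beyond counting error, in 1 library per age.

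The change of the b to a ratio with age depended on the counting. From 63 to 161 d the ratio of ssc-miR-23b to ssc-miR-23a was 0.935 times as high with all reads (log-normal counting interval 0.844 to 1.04) and 1.03 times among reads without error (0.913 to 1.16). With copies of the representative read, however, the ratio itself was 3.77, 2.83 and 2.39, which is 0.635 times from 63 to 161 d (0.550 to 0.733). For ssc-miR-27b-3p to ssc-miR-27a the change from 63 to 161 d was 0.927 (0.857 to 1.00) with all reads and 0.896 (0.790 to 1.02) among reads without error. It was 0.811 (0.723 to 0.910) without shared reads and 1.11 (1.02 to 1.21) with copies, where those of ssc-miR-27a are the read with the b base. From 98 to 161 d this ratio was lower under these 4 ways of counting, at 0.857 times (0.800 to 0.917) with all reads, 0.867 (0.780 to 0.964) without error, 0.887 (0.808 to 0.974) without shared reads and 0.792 (0.735 to 0.853) with copies.

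No member passed a 2-fold difference in level, above 2 or below 0.5, in any pair of ages. Of the 230 porcine names with at least 30 reads over the 3 libraries, 16.5% passed it from 63 to 98 d, 13.9% from 98 to 161 d and 18.7% from 63 to 161 d. The number of members, 0 of 8 in each pair, is too small to be read against these shares. The median ratio of the 8 members was 1.23, 0.925 and 1.20 in the same order, and that of all 230 names was 1.26, 0.823 and 1.05.

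The median of all names itself moved with the scaling, by 0.33 (log2) from 63 to 98 d and by -0.28 from 98 to 161 d in RPM, against 0.10 and -0.01 with TMM scaling. Member ratios are therefore also given relative to that median. From 63 to 98 d, ssc-miR-23a was 1.52 times as high (1.39 to 1.66), ssc-miR-23b 1.38 times (1.32 to 1.45) and ssc-miR-24-3p 1.33 times (1.27 to 1.39), which is 1.21, 1.10 and 1.06 times the median. Both miR-27 members were below it, with 1.04 (0.966 to 1.13) for ssc-miR-27a and 1.13 (1.11 to 1.15) for ssc-miR-27b-3p, or 0.831 and 0.900 times the median. With TMM scaling these last ratios were 0.891 and 0.964, on the other side of 1. Without shared reads ssc-miR-27a was 1.25 times as high (1.11 to 1.40), close to the median.

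From 98 to 161 d all 5 abundant members were above the median of all names. The ratio was 0.903 (0.842 to 0.969) for ssc-miR-23a, 0.932 (0.897 to 0.968) for ssc-miR-23b and 0.916 (0.901 to 0.931) for ssc-miR-27b-3p. With TMM scaling these 3 turned to 1.09, 1.12 and 1.10. The ratio was 1.00 (0.964 to 1.04) for ssc-miR-24-3p and 1.07 (1.00 to 1.14) for ssc-miR-27a, the highest of the 5 at 1.30 times the median.

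From 63 to 161 d the ratios were above 1 under each of the 4 scalings for all 5 abundant members. They were 1.38 (1.26 to 1.51) for ssc-miR-23a, 1.29 (1.23 to 1.35) for ssc-miR-23b and 1.33 (1.27 to 1.40) for ssc-miR-24-3p. They were 1.12 (1.03 to 1.21) for ssc-miR-27a and 1.03 (1.01 to 1.05) for ssc-miR-27b-3p, which was 0.990 times the median of all names and 1.01 (0.993 to 1.03) with median-of-ratios scaling. With all reads, the miR-23 and miR-24 members thus had higher ratios than the miR-27 members over the whole period. For ssc-miR-27a this did not hold without shared reads, where its ratio was 1.28 (1.14 to 1.44), about that of ssc-miR-23b at 1.29, and with copies of the representative read it was 0.998. Among reads without mapping error it did hold, with 1.16 for ssc-miR-27a against 1.38 for ssc-miR-23a, 1.42 for ssc-miR-23b and 1.43 for ssc-miR-24-3p. For ssc-miR-27b-3p the ratio without shared reads was 1.04 (1.02 to 1.06). The 5p arms had wide intervals, such as 1.5 (0.688 to 3.54) for ssc-miR-24-2-5p from 63 to 161 d, which turned to 0.820 among reads without error. From 63 to 98 d the ratio of ssc-miR-24-2-5p was 1.88 (0.897 to 4.29) with all reads and 1.00 among reads without error.

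**Figure D5:**
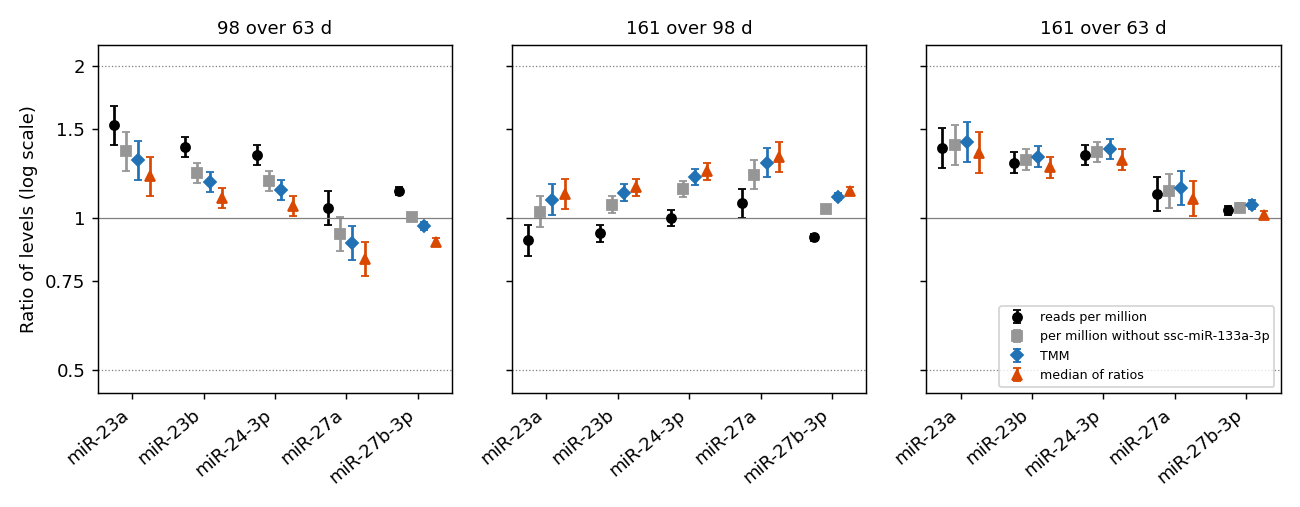
Ratio of levels, later to earlier age (log axis), for the 5 abundant members in the 3 pairs of ages, with 4 scalings as symbols and 95% exact intervals as bars. Solid and dotted grey lines mark 1 and the 2-fold limits. From 98 to 161 d the black points of 3 members lie below 1 and their TMM points, 1.09 to 1.12, above it.

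The names whose levels over the 3 ages were most like a member were found by the distance of centred log2 levels, over 137 names with at least 100 reads in each library. The nearest to ssc-miR-24-3p was ssc-miR-186, at 0.02, and ssc-miR-23b came next, at 0.07. The nearest to ssc-miR-23b were ssc-miR-30e-3p, ssc-miR-24-3p and ssc-miR-100, at 0.07 to 0.08. For ssc-miR-23a they were ssc-miR-204, ssc-miR-132 and ssc-miR-100, at 0.04 to 0.06. For ssc-miR-27a they were ssc-miR-486, ssc-miR-7134-5p and ssc-miR-151-3p, and for ssc-miR-27b-3p they were ssc-miR-107, ssc-miR-425-5p and ssc-miR-133b, all at 0.07 to 0.09. The miR-23 pair stood 0.10 apart and the miR-27 pair 0.16. The reads that mir-27a shares with mir-27b enter both members of the latter pair, and without shared reads it stood 0.21 apart, while ssc-miR-27a stood 0.12 from ssc-miR-23b and 0.07 from ssc-miR-24-3p. Among reads without mapping error the miR-27 pair stood 0.15 apart, and ssc-miR-27a stood 0.28 from ssc-miR-23b and 0.26 from ssc-miR-24-3p. The likeness of ssc-miR-27a to the other members thus depended on the counting. Only 3 libraries enter these distances, and they carry no counting interval. Some near names rest on fewer reads than the members, such as ssc-miR-132 at 69.0 RPM at 63 d. Whether the order of near names exceeds counting error was not tested.

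Lists of muscle, vessel and blood-cell miRNAs were set beside the members. Of the 7 muscle miRNAs, ssc-miR-1 and ssc-miR-208b passed the 2-fold limit upwards from 63 to 98 d, with ratios of 2.56 and 2.12. From 98 to 161 d ssc-miR-206 passed it downwards, with 0.486. With TMM scaling ssc-miR-208b at 1.81 and ssc-miR-206 at 0.585 did not pass. Of the 7 vessel miRNAs found under their listed names, ssc-miR-143-3p of smooth muscle passed it from 98 to 161 d, with 2.31, and from 63 to 161 d, with 2.97. The endothelial ssc-miR-126-3p stood at 2183, 2894 and 1976 RPM, so that it was highest at 98 d in RPM. So were ssc-miR-126-5p, ssc-miR-21, ssc-miR-221-3p and ssc-miR-222, while ssc-miR-143-3p and ssc-miR-145-5p were highest at 161 d. The muscle miRNAs ssc-miR-1, ssc-miR-133b, ssc-miR-206, ssc-miR-208b and ssc-miR-499-5p were highest at 98 d too, but ssc-miR-133a-3p and ssc-miR-486 at 161 d. A level highest at 98 d in RPM was thus not particular to vessel miRNAs. The members ssc-miR-23a, ssc-miR-23b and ssc-miR-27b-3p were also highest at 98 d in RPM, but not with the 3 other scalings. Whether the vessel and muscle names stayed highest at 98 d under those scalings was not tested.

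The 5 blood-cell miRNAs found under their listed names summed to 1903, 2979 and 2055 RPM. Among them ssc-miR-144 of red cells passed the limit upwards from 63 to 98 d, with 2.26, and ssc-miR-142-3p of white cells downwards from 98 to 161 d, with 0.409, but neither passed it under every scaling. The first was 1.93 with TMM, and the second was 0.504 with median of ratios. The defining red-cell miRNA ssc-miR-451 was at 752.4, 1366 and 1001 RPM. The part of vessel and blood cells in the levels of the members was not tested.

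Rows under other species' names of the same numbers held few reads. In all, 11 such names were listed, with 36, 30 and 25 reads at 63, 98 and 161 d. Apart from member rows and these names, the only entries at or within 10000 bases of a member hairpin were 2 predicted candidates at mir-24-1, PC-5p-118914 at 98 d and PC-5p-237818 at 161 d, with 2 reads each.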

How the data were processed

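Small RNA libraries of pig psoas major muscle, 1 for each of 3 ages, were sequenced, and libraries were mapped to ages by the sample titles. The authors processed the reads with ACGT101-miR v4.2, filtering adapters, lengths and other RNA classes and mapping to hairpins of miRBase 20 and to a pig genome whose build is not given in the sources used here. The deposited files give whole-number counts, the copies of 1 representative read per arm. They also give expected counts per arm, in which the authors' pipeline split reads that fit several hairpins, in all and without and with mapping error. Neither unit was normalised. The header of the 98 and 161 d files is displaced by 1 column and was set right. Names left empty on further hairpin rows of the 63 d file were filled from the row above.

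Expected counts were summed over the hairpin rows of a name, and given as RPM, per 1000000 reads listed in the library. For intervals they were rounded to whole numbers. Shares carry Wilson and ratios exact Clopper-Pearson intervals at 95%. The change of a ratio between ages carries a log-normal interval. Depth was 1464699 to 2418187 reads, and a count of 0 was replaced by 3. A difference was called above 2 or below 0.5, over names with at least 30 reads. Named are all members, other names of number 23, 24 or 27, entries within 10000 bases of a member hairpin, the 3 names nearest to each of 5 members, and 3 lists. In the lists, 1 vessel and 1 blood-cell name were not listed as written and were left out. The vessel name was ssc-miR-10a, although ssc-miR-10a-5p was present. The members and lists were chosen with earlier results of these data known. The fold and its interval were run on simulated counts with counting error only. That checks the calculation and does not cover variation between pigs or libraries, or shared reads.

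Alternatives were TMM (edgeR 4.0.16), median of ratios (DESeq2 1.42.0), totals without ssc-miR-133a-3p, the hairpin with most reads, reads without mapping error, copies of the representative read, a limit of 1.5, names with at least 1 read and a pseudocount of 1. Leaving out shared reads was added after seeing the data. Python 3.11.15, scipy 1.17.1 and R 4.3.3 were used.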

Additional observations from a re-analysis of the deposited data

Results flagged for a closer look

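With 1 library per age, no library could be compared with others of its group. Some rows under other species' names lie outside the comparisons, and 3 of the names on such rows exceeded 3 reads in a library. The bovine and human names of 5p arms are not among them, since they were used in the comparison of the arms. The name sha-mir-24-1-p3, listed near the b cluster, had 16, 2 and 5 reads at 63, 98 and 161 d. The name oan-miR-27b-3p had 5, 4 and 5 reads, and oan-miR-23b-3p had 1, 4 and 2. No untreated or other control exists for them, and they were singled out only because they exceed the limit that a count of 0 allows.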

How the results depend on the processing

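No paired analysis was possible because each age has 1 library and no test was made. Members past the limit, 0 of 8 in each pair, became 2 from 63 to 98 d and 1 from 63 to 161 d at a limit of 1.5. Of all 230 porcine names, 47.4% passed 1.5 from 63 to 98 d, 33.0% from 98 to 161 d and 46.1% from 63 to 161 d. With copies of the representative read, 1 member passed the limit of 2 from 63 to 161 d. It was ssc-miR-24-1-5p at 0.376, which rests on 7 copies at 63 d and 4 copies of a different read at 161 d. As counts, all porcine names past the limit rose from 38 to 109, from 32 to 76 and from 43 to 106 in the 3 pairs at a limit of 1.5. With names of at least 1 read they rose from 32 to 50 from 98 to 161 d.

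The ratio of the 5 abundant members summed, 1.19 from 63 to 98 d, became 1.01 with TMM, 0.942 with median of ratios and 1.06 without ssc-miR-133a-3p. From 98 to 161 d it was 0.934 and turned to 1.12, 1.15 and 1.06 in the same order, while it was 0.913 with reads without mapping error and 0.954 with copies. From 63 to 161 d it was 1.11 and became 1.14 with TMM, 1.09 with median of ratios and 1.14 with copies. The direction between neighbouring ages thus depended on the scaling.

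At 63, 98 and 161 d, reads without mapping error gave a b share of 93.9%, 92.9% and 92.7%, a miR-23 ratio of 1.58, 1.5 and 1.63, a miR-27 ratio of 38.4, 39.7 and 34.4 and a miR-27 share of 84.6%, 81.4% and 80.3%. Copies gave a b share of 90.2% at 63 d and 89.4% at 161 d, a miR-23 ratio of 2.83 at 98 d and 2.39 at 161 d, a miR-27 ratio of 11.0, 15.5 and 12.2 and a miR-27 share of 81.5%, 79.3% and 78.5%. The hairpin with most reads gave a miR-27 share of 79.4%, 75.7% and 75.3%, since it leaves out 1 of the miR-24 hairpins. Without shared reads the b share was 94.3%, 93.1% and 92.9% and the miR-27 ratio 35.3, 32.2 and 28.6. The cause of the other changes was not tested. The other 77 values of this kind stayed within their intervals, or within 1.5 times for counts. Depth limits the 5p arms most, with 10 to 52 reads for each porcine name and 0 to 17 for the others.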
